A study of Drosophila melanogaster with 2 samples.

Results

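The genes described here are the 9 core genes of JAK-STAT signalling in Drosophila melanogaster. They are the ligand genes upd1, upd2 and upd3, the receptor genes dome and et, the kinase gene hop, the transcription factor gene Stat92E and the inhibitor genes Socs36E and Ptp61F. They were listed by name for their roles in the pathway, with no threshold on a measured value but with earlier results of these data known, and all 9 were found among the 13945 protein-coding genes on the chromosome arms. The study held 1 group of 2 biological replicates, each a chromatin immunoprecipitation followed by sequencing (ChIP-seq) of whole embryos of strain CG9932-GFP, aged 8 to 24 h by the source label. All embryos carried an insertion that makes the product of CG9932 fused to eGFP, and chromatin sheared by sonication to between 200 and 800 bp was recovered through the GFP tag. The labels name no promoter that drives the fusion and do not say in which cells it is made, and no untagged or input sample was analysed here. In whole embryos, strong binding in few cells and weak binding in many cannot be told apart.

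In flies, the secreted Upd proteins bind the receptor Dome, whose associated Janus kinase Hop phosphorylates Stat92E, which then enters the nucleus and activates genes. Et is a short relative of Dome that damps the pathway, Socs36E is a feedback inhibitor whose gene is itself a known target of Stat92E, and Ptp61F is a tyrosine phosphatase that counters the pathway. In the embryo the pathway is known for its part in segmentation and in shaping the trachea, the hindgut and the spiracles.

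The measurements were peaks on dm6, stretches where recovered DNA piled up. Each peak had a summit and a signal, which is the value of the authors' peak caller. The conservative set, made of peaks that passed a threshold on irreproducible discovery rate (IDR) between both replicates, held 6829 peaks with a median signal of 160. A set was also made from each replicate alone, with 6036 peaks from replicate 1 and fewer, 4549, from replicate 2. No read counts come with the lists and the depth of each library is unknown, so signals were ranked within a list and never compared as levels between replicates. A gene was counted as bound at its promoter where at least 1 of its transcription start sites (TSS) had a summit no more than 500 bp away. With 1 condition and 2 replicates the design gives no test between groups, and what follows is a description.

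CG9932-eGFP was found at the promoters of 4 of the 9 JAK-STAT genes, namely dome, Stat92E, Socs36E and Ptp61F (44.4%), against 29.9% of all protein-coding genes. The 3 ligand genes, the receptor gene et and the kinase gene hop had no summit at the promoter, in the gene or in the 2 kb upstream. By that wider rule the count was again 4 of 9, against 40.0% of all protein-coding genes, so it lay close to the share of all genes. Neither of these shares of all genes takes gene length into account. Among the pathway's parts, the inhibitor genes Socs36E and Ptp61F, the transcription factor and the signalling receptor carried summits. The gene et, whose product also damps the pathway, carried none. Socs36E and Ptp61F held 6 each of the 15 summits. Stat92E held 2 of the others and dome 1.

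In the set of replicate 1 alone, the same 4 genes were bound at their promoters, against 30.1% of all genes, and the same 4 by the wider rule, against 38.8% of all genes. In the set of replicate 2 alone, 3 of 9 were bound, all but dome of the 4, against 23.9% of all genes at the promoter and 32.2% by the wider rule. The optimal set of both replicates gave 3 of 9, again without dome, or 33.3% by either rule, which was close to the 31.4% of all genes at the promoter and below the 41.8% of all genes by the wider rule. The call at dome therefore rested on replicate 1 and on the conservative comparison, while the calls at Stat92E, Socs36E and Ptp61F stood in all 4 sets.

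**Figure D1:**
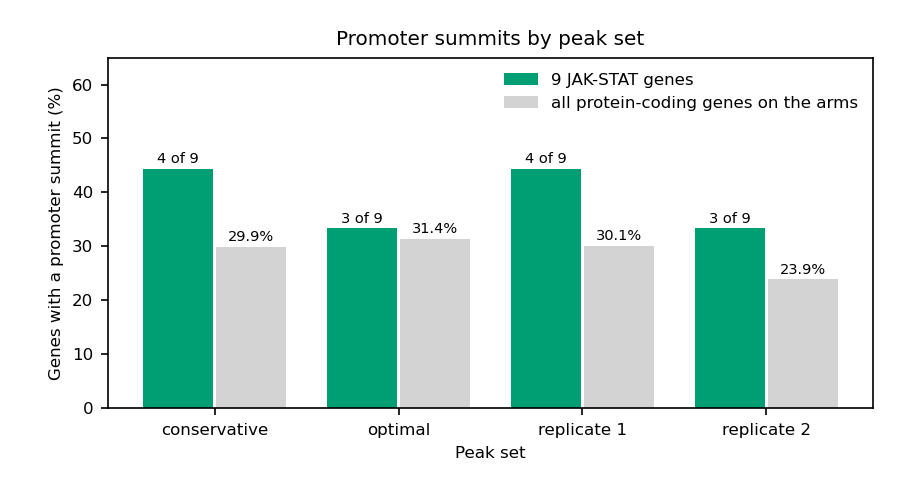
Share of genes with a promoter summit (percent, vertical axis) in each of 4 deposited peak sets, for the 9 JAK-STAT genes (green) and for all 13945 protein-coding genes on the arms (grey). The 9 genes reached 44.4% in the conservative set and in that of replicate 1, and 33.3% in the other sets, where 1 gene fewer was bound.

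Gene length bears on both rules, since long genes hold more summits and are more often bound at the promoter. When all protein-coding genes were split into 10 classes by length, 39.2% of genes in the class of upd2 held a summit in the gene or 2 kb upstream, and 46.1% in the class of upd1 and et. In the class of upd3, dome, hop and Socs36E it was 58.2%, and in the class of Stat92E and Ptp61F 69.3%. The 44.4% of the 9 genes was above the first of these shares and below the others. At the promoter, the shares of the same classes were 31.9%, 37.8%, 41.7% and 40.3%, in that order. All of these were above the 29.9% of all genes and below the 44.4% of the 9 genes. The 2 longest of the 9 genes, Ptp61F and Stat92E, were thus in the class where a summit is most common, and upd2, upd1 and et in classes where most genes held none. upd3 and hop were without a summit in a class where most genes held one.

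The 15 summits had signals between 82.4 and 441, with a median of 156 against 160 for the whole conservative set, and 7 of them were above that median. The summit with the highest signal, in Ptp61F, ranked 1070 of 6829, so the 9 genes held none of the peaks at the top of the list. Of the 15 summits, 46.7% were also in the sets of both replicates, against 58.8% of all summits on the arms, and 26.7% were in neither, against 19.5% of all. The set of replicate 1 held 73.3% of the 15, against 75.9% of all summits, and that of replicate 2 held 46.7%, against 63.4% of all. No summit of the 15 was in the set of replicate 2 without being in that of replicate 1. This was also uncommon over all summits, with 63.4% in the set of replicate 2 and 58.8% in both. In the set of replicate 1 only were 4 of the 15, while over all summits 75.9% were in that set and 58.8% in both. By place, 4 of the 15 lay at a promoter and 13 within an intron of the gene, since the promoter summits of Stat92E and Ptp61F sat at start sites inside the gene.

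**Figure D2:**
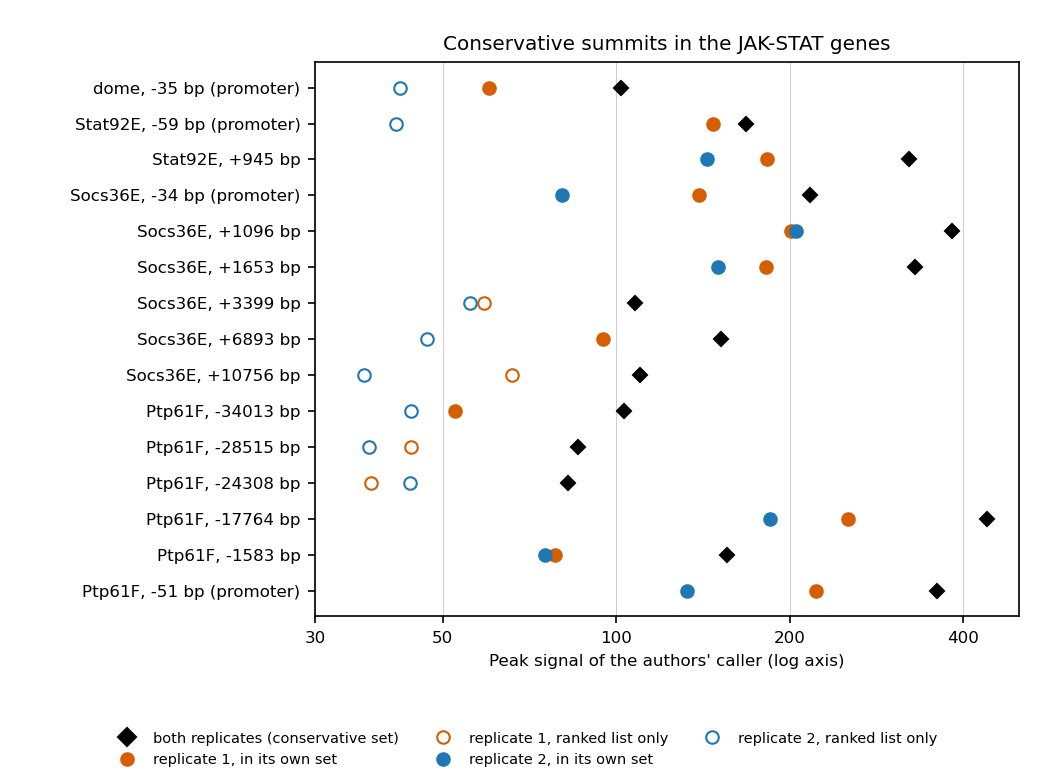
Peak signal (horizontal log axis) of the 15 conservative summits in the JAK-STAT genes, each named by its distance from the nearest start site of the gene (negative is upstream). Black diamonds are the conservative set, filled circles a replicate's own set, and open circles peaks found only in a replicate's ranked list; 7 summits have 2 filled circles and 4 have none.

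The promoter summits lay close to the annotated starts, at -35 bp (dome), -59 bp (Stat92E), -34 bp (Socs36E) and -51 bp (Ptp61F), all upstream. The sequence 50 bp either side of each is shown because these are the sites that make the calls at the 4 promoters. It is given 5′ to 3′ along the gene, from the RefSeq copy of the Release 6 assembly in dm6 coordinates, and stops at the start site where the window would cross it. Capitals mark the letters TATCG on either strand, that is TATCG or CGATA. The stretches are chrX:19683519-19683603 (dome), chr3R:20551116-20551216 (Stat92E), chr2L:18152418-18152501 (Socs36E) and chr3L:1350600-1350700 (Ptp61F), all on the minus strand.
dome promoter: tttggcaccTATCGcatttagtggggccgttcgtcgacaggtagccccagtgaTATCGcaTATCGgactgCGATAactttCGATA
Stat92E promoter: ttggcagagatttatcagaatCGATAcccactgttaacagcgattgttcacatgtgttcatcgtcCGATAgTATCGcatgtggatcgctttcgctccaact
Socs36E promoter: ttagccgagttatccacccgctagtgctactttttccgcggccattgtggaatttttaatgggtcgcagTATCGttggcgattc
Ptp61F promoter: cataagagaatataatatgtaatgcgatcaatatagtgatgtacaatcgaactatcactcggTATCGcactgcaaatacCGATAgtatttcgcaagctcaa

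All 4 windows held TATCG within 50 bp of the summit. The dome window held 5 copies, that of Stat92E 3, that of Ptp61F 2 and that of Socs36E 1. The letters were picked after these sequences had been read, so they get no test and only their share elsewhere is given. Of the 11 windows at the other summits of the 9 genes, 1 held TATCG. Across the genome it was in 29.3% of 3467 promoter summit windows, in 11.7% of 3323 other summit windows and in 11.3% of 12862 windows centred 500 bp to the side of a summit. The longer TATCGCA was in 3 of the 4 promoter windows, 3 times in that of dome, against 3.32% of all promoter summit windows. The palindrome TATCGATA, the DRE bound by the promoter factor DREF, begins with the same letters, but none of the 15 windows of 100 bp either side held it, against 5.43% of all 6790 summit windows on the arms.

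The 3 ligand genes lie together on X within 68.6 kb (18240654 to 18309291). upd2 (FBgn0030904) spans 18240654 to 18243284 on the minus strand, upd3 (FBgn0053542) 18277233 to 18284596 on the plus strand and upd1 (FBgn0004956) 18305354 to 18309291 on the minus strand. Their promoters were not empty in the ranked lists, which hold peaks of any score, but every peak there was under the lowest score of a set, 830 of at most 1000. At upd1, the best promoter peak of the conservative ranked list had a signal of 44.9 and a score of 122, and the replicates' ranked lists gave 18.7 (replicate 1) and 28.1 (replicate 2). At upd2 the values were a signal of 27.5 and a score of 109. At upd3 the best promoter peak lay at -460 bp, with a signal of 53.8 and a score of 393, and an intronic peak at +5399 bp reached a signal of 72.0 and a score of 469. So upd3, the ligand gene known for its induction by damage and infection, came closest to the threshold of the 3 without reaching it.

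Between the ligand genes there was 1 summit, and it was present in all 4 sets. It lay at 18294218 on X (peak 18294141 to 18294327), over no gene, 9.62 kb past the 3′ end of upd3 and 11.1 kb past that of upd1. Its signal was 319 (rank 1629 of 6829), with 186 in replicate 1 (rank 1688 of 6036) and 129 in replicate 2 (rank 1715 of 4549). It was thus stronger than 76.1% of the set and in the upper part of all 3 lists. The nearest protein-coding TSS, 14.0 kb away, was that of upd1, and the noncoding RNA gene CR15061 lay 1159 bp away. Which gene the site serves was not tested. A second summit at 18239525, just outside the cluster and 1129 bp past the 3′ end of upd2, reached 156 in signal (105 in replicate 1 and 59.6 in replicate 2). The ligand cluster thus held 1 summit, against a median of 3 in 342 windows of the same length along X, of which 18.7% held none. The cluster holds 4 protein-coding genes, and of the 122 windows with no more genes than that, 38.5% held no summit.

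dome (FBgn0043903; X, 19676061 to 19683518, minus strand) encodes the signalling receptor, and et (FBgn0031055; X, 19672312 to 19675891, minus strand) its short relative, directly downstream on the same strand. The dome promoter peak (19683368 to 19683737) had a signal of 102, rank 5073 of 6829, so only 25.7% of the set was weaker. In replicate 1 it had a signal of 60.1 (rank 5121 of 6036), and in replicate 2 a peak of signal 42.2 with a score of 36 was listed but not in the set. The promoter is shared, since the TSS of Ubqn, which encodes a ubiquilin, was 255 bp from the summit, and the peak cannot be given to 1 of the genes. et had no peak at its promoter in any of the 3 ranked lists searched, and its best peak, at -939 bp, had a signal of 31.9 and a score of 155. Past the 3′ end of et, a far stronger summit lay in an intron of Zw, the glucose-6-phosphate dehydrogenase gene, with a signal of 1034 (rank 246), 566 in replicate 1 and 460 in replicate 2. The neighbouring receptor genes thus differed in the conservative set and in that of replicate 1. There a weak peak lay at the promoter shared by dome and Ubqn, and none at et. In the optimal set and in that of replicate 2 neither receptor gene was bound.

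hop (FBgn0004864; X, 11360930 to 11368098, minus strand) encodes the Janus kinase. The conservative ranked list and that of replicate 2 held no peak at all in hop or 2 kb upstream, though the median gene of its length class had 12 and 11 there. Such gaps were found in 9.68% and 9.04% of that class. Replicate 1 in contrast listed 7 peaks there, the best at -12 bp with a signal of 54.5 and a score of 763, just under the lowest score in the sets. The lists of the replicates thus differed at the hop promoter. The nearest summit upstream, at -2930 bp in an intron of dlg1, reached 215 in signal (112 in replicate 1 and 97.9 in replicate 2). On the other side a summit of signal 98.7 lay 27 bp from the TSS of Pa1. It was in neither replicate's own set, and the ranked lists gave 71.5 in replicate 1 and 39.6 in replicate 2.

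Stat92E (FBgn0016917; 3R, 20535323 to 20552311, minus strand) encodes the pathway's transcription factor and has 2 annotated start positions 1204 bp apart. The outer one had no peak in the set. The inner one, the start of 6 of the 11 transcripts, had its summit at -59 bp (peak 20551125 to 20551218), with a signal of 168 and rank 3265 of 6829. In replicate 1 this peak had a signal of 147 (rank 2250 of 6036). In replicate 2 it was only in the ranked list, with a signal of 41.4 and a score of 681. The promoter call of replicate 2 rested on another peak, at +412 bp of the same start, with a signal of 58.3 (rank 3845 of 4549), and the optimal set also listed one at +390 bp, with a signal of 39.6 (rank 7118 of 7328). So both replicates called the inner promoter, at different positions.

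The stronger Stat92E summit lay at +945 bp, in the first intron of all 11 transcripts (peak 20550077 to 20550262). It had a signal of 323 (rank 1604 of 6829), with 183 in replicate 1 (rank 1731 of 6036) and 144 in replicate 2 (rank 1506 of 4549), and was thus found in both. It was stronger than 76.5% of the set. Upstream and outside the 2 kb counted for the gene, 4 more summits lay within 6 kb, in or near DPCoAC and CG5180, with signals of 190, 543, 594 and 299 from the nearest to the farthest. The highest of them, 110 bp from the TSS of DPCoAC, had 405 in replicate 1 and 222 in replicate 2. The highest signals around Stat92E were thus at these neighbours.

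**Figure D3:**
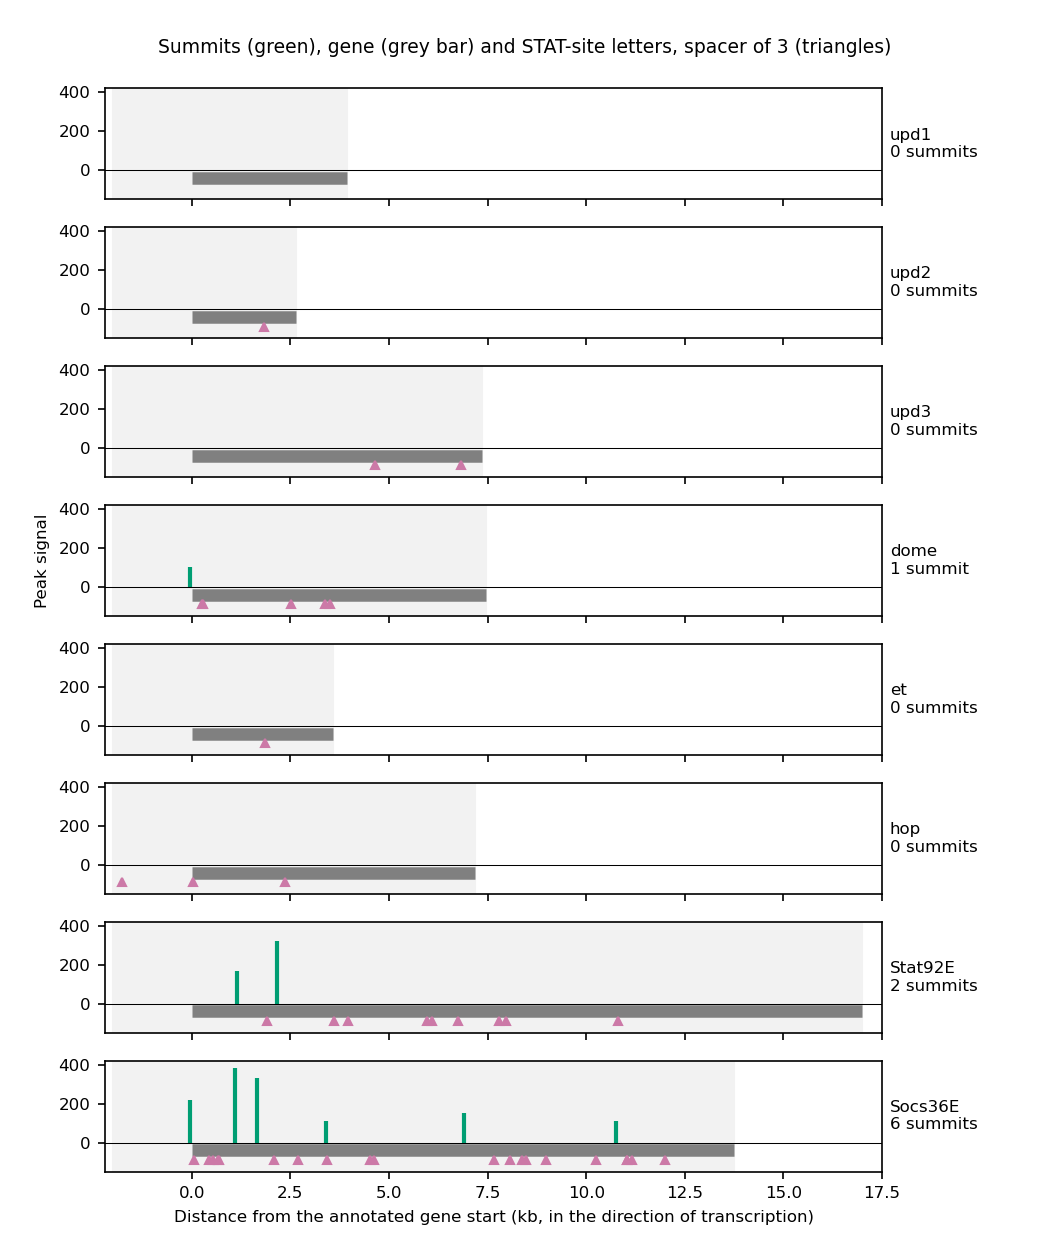
Conservative summits (green lines, height is the peak signal) along 8 of the 9 JAK-STAT genes, drawn by distance from the annotated gene start in kb, with the gene as a grey bar and the counted region shaded. Triangles mark STAT-site letters with a spacer of 3 bases; Socs36E has 6 summits and 20 such sites, while upd1, upd2, upd3, et and hop have no summit.

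Socs36E (FBgn0041184; 2L, 18138675 to 18152417, minus strand) encodes the feedback inhibitor of the SOCS family and was the gene with the densest summits of the 9. It held 6 in 15.7 kb, or 3.81 per 10 kb, against 0.507 per 10 kb over all arms. Of all protein-coding genes, 110 (0.789%) held as many, and of its length class 0.43%. The promoter summit at -34 bp (peak 18152266 to 18152635) had a signal of 217, with 139 in replicate 1 and 80.5 in replicate 2. Next to it, the first intron held the 2 strongest summits. The one at +1096 bp (peak 18151184 to 18151406) had a signal of 383 (rank 1300 of 6829), with 201 in replicate 1 (rank 1514) and 205 in replicate 2 (rank 925). The one at +1653 bp (peak 18150704 to 18150905) had a signal of 330 (rank 1553), with 182 in replicate 1 and 150 in replicate 2. These 3 summits near the start were in the sets of both replicates.

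The 3 Socs36E summits farther in were weaker, and none of them was in the sets of both replicates. In the conservative set, which compares the replicates, their scores were still 1000 (+3399 bp), 1000 (+6893 bp) and 949 (+10756 bp). At +3399 bp (peak 18148833 to 18149202) the signal was 108, and neither replicate's own set held the peak, which had signals of 58.9 in replicate 1 and 55.7 in replicate 2. At +6893 bp (peak 18145339 to 18145708) the signal was 152, with 94.8 in the set of replicate 1 and 47.0 in the ranked list of replicate 2 only. At +10756 bp (peak 18141476 to 18141845), in the second intron, the signal was 110, and neither own set held it (66.0 in replicate 1 and 36.5 in replicate 2). The count for Socs36E was accordingly 4 in replicate 1 and 3 in replicate 2. Past the 3′ end a summit of signal 178 lay 28 bp from the TSS of kel, the ring canal gene kelch, and was not counted for Socs36E.

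Stat92E binds paired half-sites, written here as TTCNNNGAA, and also the version with a spacer of 4, TTCNNNNGAA. Both read the same on either strand. The summit windows of Socs36E at +1096 bp and +3399 bp are shown because the first is the gene's strongest and the second is the only 1 of the 15 to hold both versions. They are chr2L:18151271-18151371 and chr2L:18148968-18149068, minus strand, 5′ to 3′, with capitals for the STAT letters.
Socs36E intron at +1096: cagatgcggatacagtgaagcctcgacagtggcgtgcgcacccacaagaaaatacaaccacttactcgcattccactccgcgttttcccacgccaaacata
Socs36E intron at +3399: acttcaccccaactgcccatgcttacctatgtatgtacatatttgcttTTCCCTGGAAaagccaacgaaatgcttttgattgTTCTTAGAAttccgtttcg

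The summit at +3399 bp lay inside TTCCCTGGAA, and the middle of TTCTTAGAA was 36 bp downstream of it. Among all 15 summit windows of 100 bp either side, 1 held TTCNNNGAA, against 4.87% of all 6790 windows, and 2 held TTCNNNNGAA, against 5.68%. The other was the dome promoter, with the middle of TTCGGCTGAA 63 bp upstream of the summit. The strongest summits of Socs36E, Stat92E and Ptp61F held neither version. Of other letters, the Motif 1 core GGTCACACT was in the dome window alone, against 2.37% of all windows, and so was CAGGTAG, the letters of the early factor Zelda, against 0.913%. GAGAG, the letters of the GAGA factor, was in 2 of 15 windows, both in Socs36E, against 23.6%. A match is a run of letters and not a measured site of any of these factors.

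Along the whole gene and 2 kb upstream, Socs36E held 20 copies of TTCNNNGAA, or 1.27 per kb, against 0.319 per kb over all arms. The median of its length class was 0.287 per kb, and of the 1394 genes of that class 1, Socs36E itself, reached this density. Of the 20 copies, 9 lay within 500 bp of a summit, a stretch that made up 35.3% of the region. Other members had fewer per kb, with 0.529 in dome, 0.474 in Stat92E, 0.371 in Ptp61F, 0.327 in hop, 0.216 in upd2, 0.214 in upd3 and 0.179 in et, and upd1 had none. With a spacer of 4, dome had 1.27 and Socs36E 1.02 per kb, against 0.329 per kb over all arms. Of the 16 Socs36E copies with a spacer of 4, 6 lay within 500 bp of a summit. The Socs36E gene was thus dense both in STAT letters and in CG9932-eGFP summits, and whether the letters and the summits are linked was not tested.

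Ptp61F (FBgn0267487; 3L, 1342493 to 1475257, minus strand) encodes the tyrosine phosphatase. It is 133 kb long, has 4 start positions and encloses 9 other protein-coding genes. It held 6 summits, or 0.445 per 10 kb against 0.507 over all arms, and 7.46% of its length class held as many, so its count was high while its density was not. The promoter summit lay at -51 bp of the third start from the outer end, that of the transcripts RA and RB, 124658 bp into the gene (peak 1350539 to 1350703). Its signal was 360 (rank 1407 of 6829), the highest of the 4 promoter summits, with 222 in replicate 1 (rank 1330) and 133 in replicate 2 (rank 1642). The TSS of CG9166, a gene inside Ptp61F, was 466 bp away. The other 3 starts had no peak in the set.

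The other Ptp61F summits lay in long introns of the transcripts RE and RC, which also contain other genes. The transcripts RA, RB and RD start nearer the 3′ end of the gene, so for them these summits lay upstream of the start. The strongest of the 15 summits was here, at 1368363 (peak 1368245 to 1368455), with a signal of 441 (rank 1070 of 6829), 253 in replicate 1 and 185 in replicate 2. It lay at -17764 bp from the bound Ptp61F start and 2265 bp from the TSS of ru, the gene of the Rhomboid-family protease Roughoid, which releases EGF receptor ligands. A summit at 1352182, over the 3′ UTR of CG9166, had a signal of 156, with 78.3 in replicate 1 and 75.1 in replicate 2. A further 3, at 1384612, 1379114 and 1374907, lay within ru, the first over a coding exon and the others in introns of ru. Their signals were 103, 85.9 and 82.4, and only the first was in a replicate's own set (52.4 in replicate 1). For these 5 summits, Ptp61F and the enclosed genes cannot be told apart as the gene concerned. Past the 3′ end, a summit of signal 272 lay 77 bp from the TSS of indra and was not counted.

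**Figure D4:**
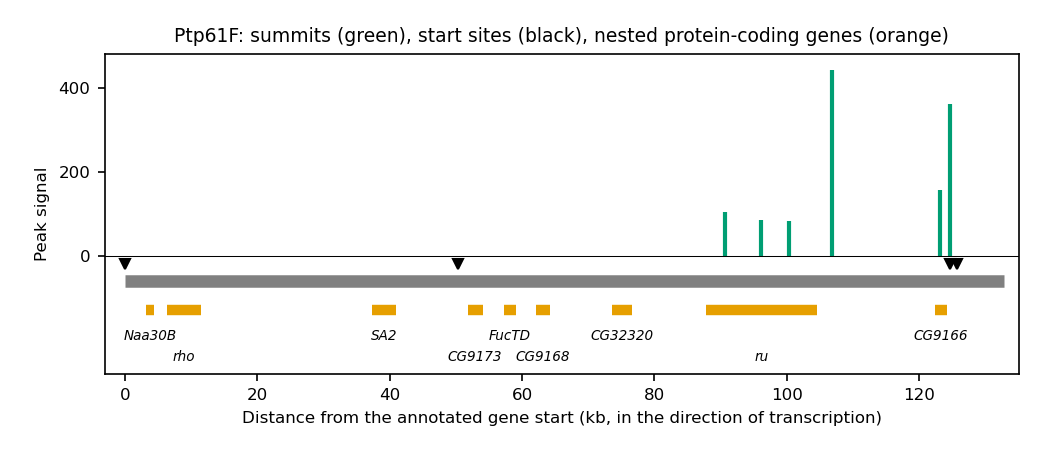
Conservative summits in Ptp61F (green lines, height is the peak signal) by distance from the outer gene start in kb, with the 4 start positions as black triangles, the gene as a grey bar and the 9 enclosed protein-coding genes in orange. The 6 summits lay toward the 3′ end of the gene, 3 of them within ru, and 1 start position carried a summit.

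Further genes of the pathway were taken from a list of 26 regulators and reported target genes, of which 25 were found by symbol. Of these, 11 (44.0%) had a promoter summit, against 29.9% of all protein-coding genes, and 16 (64.0%) had one in the gene or 2 kb upstream, against 40.0%. The shares of all genes are not matched for length. chinmo, zfh1, trh, vir-1, Mmp1, mask and apt were in the longest class. There 40.3% of genes were bound at the promoter and 69.3% by the wider rule. TotA, TotM and Diedel were in the shortest class, with 11.0% and 16.1%. In the set of replicate 2 the promoter count was 8 (32.0%), against 23.9% of all genes. Among peaks above the median signal it was 4 (16.0%), against 21.6% of all genes, so the excess over all genes did not hold among the stronger peaks.

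Of the 13 regulators, 7 (53.8%) were bound at the promoter, against 29.9% of all genes. In the set of replicate 1 the count was 7, against 30.1% of all genes, and in that of replicate 2 it was 4, against 23.9%. By the wider rule in the conservative set it was 8 (61.5%), against 40.0% of all genes. All regulators but Socs44A and lwr were in length classes where between 37.8% and 41.7% of genes were bound at the promoter. The highest signal was at apt, whose product restrains Stat92E in border cells, with 548 at -110 bp (329 in replicate 1 and 216 in replicate 2). Socs16D, of the same SOCS family as Socs36E, had 393 at -17 bp (220 in replicate 1 and 171 in replicate 2), while the family member Socs44A had no promoter summit. mask had 216 (148 in replicate 1 and 76.8 in replicate 2) at a promoter shared with Spase22-23, and Su(var)2-10, which encodes the PIAS protein, had 152 (104 in replicate 1 and 61.3 in replicate 2). The promoters of ken, whose product is a repressor of some Stat92E targets, of BRWD3 and of Stam had 145, 140 and 111, each in the set of replicate 1 but not of replicate 2, and that of Stam is shared with aurB. Cdk4 held 2 summits away from its promoter, in each of the 4 sets. Hrs, CycD, E(bx) and lwr held none in the conservative set, though the set of replicate 1 held 2 in lwr.

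Of the 12 reported target genes, 4 (33.3%) were bound at the promoter, against 29.9% of all genes, so this share was near the background. The same 4 were bound in the set of replicate 1, against 30.1% of all genes, and in that of replicate 2, against 23.9%. By the wider rule in the conservative set 8 (66.7%) were bound, against 40.0% of all genes, a share not matched for length. In the longest class, that of chinmo, zfh1, trh, vir-1 and Mmp1, 69.3% of genes were bound by this rule. In the shortest, that of TotA, TotM and Diedel, it was 16.1%. trh, which encodes a tracheal transcription factor, had the highest signal of these, 214 at -398 bp (132 in replicate 1 and 82.5 in replicate 2). Mmp1, the gene of a matrix metalloproteinase, had 141, vir-1, a gene induced by viral infection, 138, and Diedel, which encodes a secreted immune factor, 121 at a promoter shared with CG2310. chinmo and zfh1 each held 2 summits away from their promoters, and slbo and Tep2 held 1, that of slbo in neither replicate's own set. eve, TotA, TotM and Tep1 held none.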

How the data were processed

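ChIP-seq peak lists of 2 biological replicates of 1 group were analysed. The authors deposited ranked lists and sets past an IDR threshold on dm6, per the labels and the deposited file descriptions: 1 pair from each replicate and 2 from both together (conservative and optimal). For the aligner, the peak caller and their settings the sources used here give nothing. The deposited signal is the value of the authors' caller. The deposited score, which is whole, was never under 830 in a set. By the −log10 column of global IDR that the authors deposited, this score stands for an IDR of 0.0100. A further 29 value columns of the series' files were not used.

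Summits were counted from 1 and set against genes of Ensembl release 115 (BDGP6.54) on 2L, 2R, 3L, 3R, 4 and X. No peak ended past its arm in the RefSeq genome, whose bases were used for windows of 50 and 100 bp. Members, gene lists and motif letters were chosen with earlier results of these data known. Named genes were all members, genes sharing a bound promoter or holding a member's summit or next to one, and the listed pathway genes. Intervals and tests were not computed, since the lists hold no read depth and the design 1 group. Alternatives were promoters of 200 and 1000 bp, reaches of 1 and 5 kb, other sets, the stronger peaks, peak centres, any overlap of 1 bp and motif windows of 50 bp. Counting steps were tested on simulated data. Python 3.11.15, numpy 2.4.6, pandas 2.3.3 and matplotlib 3.10.9 were used.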

Additional observations from a re-analysis of the deposited data

How the results depend on the processing

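Of 58 values recomputed with 1 choice changed, 52 stayed within 1.5 times the value reported, or equal to it for a peak signal. This rule looks at each value alone and not at how it stands to the share of all genes. The 58 also include the shares of all genes themselves. The count of members with a promoter summit was 3 or 4 under every alternative, with 3 in the optimal set, in the set of replicate 2 alone and among the peaks above the median signal, dome being the gene lost each time. Against this 44.4% or 33.3%, the share of all protein-coding genes ran between 21.6% and 33.5% over the alternatives with a share for all genes, and the shares were closest in the optimal set, at 33.3% against 31.4%. The count by the gene or 2 kb upstream was between 3 and 5, with 5 (55.6%, against 49.1% of all genes) at a reach of 5 kb, which added hop, and 3 (33.3%, against 41.8%) in the optimal set. The 15 summits became between 8 and 11 when a replicate was left out, and 7 above the median signal. The 11 other pathway genes with a promoter summit became 7 (28.0%, against 23.2% of all genes) with promoters of 200 bp and between 8 and 11 without a replicate. Above the median signal they became 4, or 16.0% against 21.6% of all genes, which turns the 44.0% against 29.9% round. The strongest promoter peak of Stat92E became 323 in place of 168 with promoters of 1000 bp, which then include the intronic summit. The windows with STAT letters of spacer 4 became 1 in place of 2 at 50 bp. No paired analysis was possible because there is 1 group.

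With 2 replicates no SD was given, and depth was unknown, so for a gene without a summit binding was not detected and cannot be called absent. No control sample was analysed here, so signal that an untagged embryo would give at these sites was not measured. Intronic summits in long genes with genes inside them cannot be given to 1 gene.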
